A study of Arabidopsis thaliana with 48 samples.

Results

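The comparison described here is that of met1-7 leaves with Col-0 leaves in the ground control, whose groups hold 8 of the 48 libraries of the study. Its members were taken from the sample labels: leaf, ground control (GC), genotype met1-7, replicates 1 to 4, set against leaf, ground control, genotype Col-0, replicates 1 to 4. The study grew Arabidopsis thaliana of 3 genotypes, met1-7, elp2-5 and Col-0, on the International Space Station (spaceflight, FT) and in an environmental simulator at Kennedy Space Center, and sequenced poly(A)-selected RNA of leaves and roots.

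The met1-7 plants carry a mutation in DNA methyltransferase 1 (MET1), the elp2-5 plants one in subunit 2 of the Elongator complex (ELP2), and Col-0 is the wild-type background of both mutants. All plants compared were 11-day-old seedlings, germinated and grown on plates of solid medium under constant light, fixed in RNAlater and dissected into organs afterwards. RNA was extracted from 3 plants, a replicate could hold plants of 2 plates, and each genotype was 1 mutant line, so the replicates measure the spread between plates and preparations within a line and not between independent lines. Leaves and roots came from the same seedlings. The spaceflight and root libraries of met1-7 and Col-0, and the GC leaf libraries of elp2-5, were used to follow the genes found here. All leaf libraries of the study, those of elp2-5 in spaceflight included, also entered the filter and the fit of the GC leaf test. They thus had a part in which genes were tested and called.

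MET1 is the maintenance methyltransferase that copies methylation of CG sites onto the new DNA strand after replication. In plants, methylated CG sites lie in transposons and repeats, where they go with transcriptional silence, and within the bodies of many active genes. Loss of MET1 is known to release transcripts of transposon-derived genes and of a small number of genes whose promoters hold methylated repeats. RNA-directed DNA methylation, in which small RNAs guide methyltransferases to matching loci, and active demethylation by glycosylases act beside it.

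Expression was given as FPKM, a fragment count scaled for transcript length and library size, for 33977 genes. The correlation of log2 values was 0.9732 to 0.9751 between met1-7 libraries, 0.9718 to 0.9794 between Col-0 libraries and 0.9424 to 0.9612 between the genotypes. Steps in the low FPKM values of 123 genes placed the relative depth at 0.85 to 1.07 in met1-7 and 0.98 to 1.17 in Col-0, and 18367 to 18527 genes in met1-7 libraries and 18349 to 18684 in Col-0 libraries had at least 1 FPKM. The summed FPKM of 6 leaf mesophyll markers was 39800 to 41800 in met1-7 and 39900 to 43700 in Col-0. Root, flower, guard cell and trichome markers gave no call, and the root sum, 219 to 292 against 200 to 263 FPKM, came mostly from PYK10. As in any bulk sample, fewer cells of a type and less RNA per cell cannot be told apart.

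Some Col-0 libraries stood apart. Seed storage and oleosin transcripts summed to 980 FPKM over 9 markers in Col-0 GC leaf replicate 4, against 0.25 to 0.57 FPKM in the met1-7 libraries. SESA1 was at 339.01 FPKM in that library and at 0.1 to 0.34 FPKM in the other 3 Col-0 libraries, and EM1 and EM6 were at 0 in all 8. None of the 9 markers passed the filter of the test. Col-0 GC leaf replicate 2 had the highest level of several jasmonate-responsive transcripts, described below with and without it. Beyond the 8 libraries, Col-0 FT leaf replicate 2 and Col-0 GC root replicate 4 lacked some of the transcripts that separated Col-0 from met1-7 in GC leaves, as given below. Among the 8, Col-0 GC leaf replicate 3 was often the lowest Col-0 library for such transcripts. Their part in the results was not tested beyond leaving each library out.

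A gene was called where the limma test on log2(FPKM + 0.5) gave a Benjamini-Hochberg adjusted p under 0.05 and a difference of at least 2-fold. Of 19877 genes tested, 379 were called in GC leaves (1.91%), 209 of them higher in met1-7 (1.05%) and 170 lower (0.855%). Differences on this scale understate the change of weakly expressed genes. The higher genes were mostly near silence in Col-0: their median level was 6.37 FPKM in met1-7 and 0.04 FPKM in Col-0, and 160 of the 209 stayed under 1 FPKM in all 4 Col-0 libraries, against 3.96% of all tested genes. The lower genes were expressed in Col-0, with a median level of 1.35 FPKM in met1-7 and 5.07 FPKM in Col-0. The median difference was 2.86 among higher genes and -1.34 among lower genes on the log2 scale, and 97 higher but 6 lower genes differed by at least 8-fold. The groups did not overlap for 189 higher and 159 lower genes, against 21.1% of all genes tested.

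**Figure D1:**
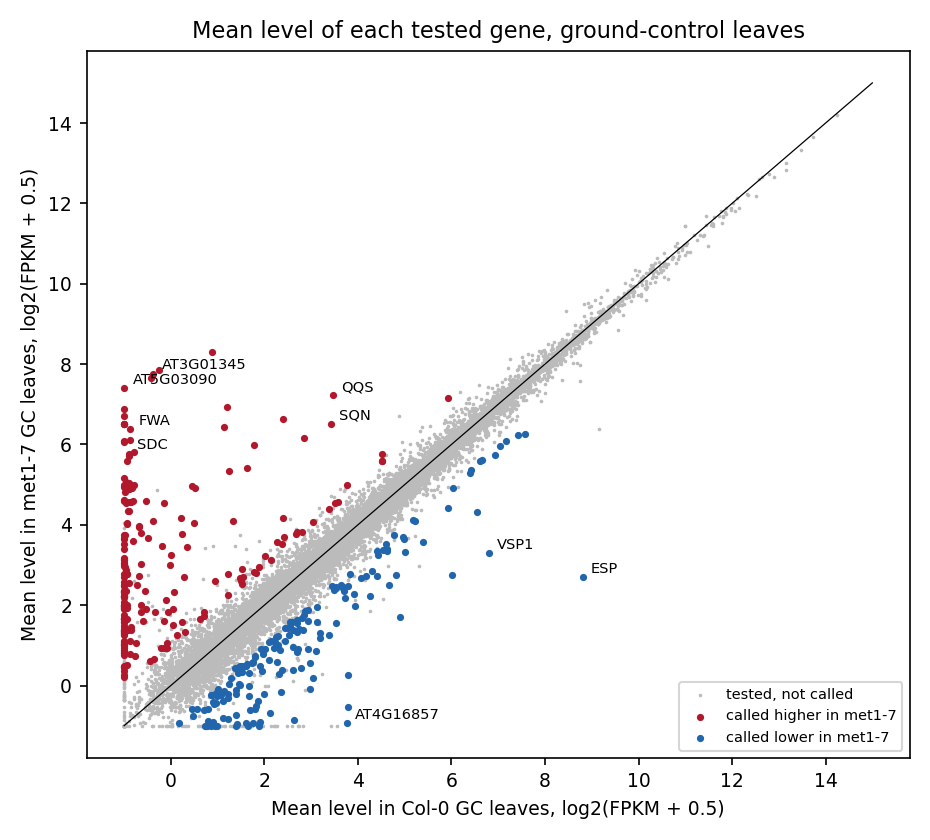
Mean level of each tested gene in met1-7 GC leaves (vertical axis) and Col-0 GC leaves (horizontal axis), as log2(FPKM + 0.5), with genes called higher in red and genes called lower in blue. Most of the 209 higher genes stand at the left edge, near 0 FPKM in Col-0, whereas the 170 lower genes spread along the diagonal.

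The mutated gene itself was still transcribed. MET1 had 12.43, 10.97, 14.42 and 10.83 FPKM in met1-7 leaves, against 13.42, 14.73, 14.04 and 14.51 FPKM in Col-0 leaves. The groups overlapped, and the difference of -0.22 ± 0.07 (SE) had a limma adjusted p of 0.046 and was under 2-fold, so it was not called. FPKM over the whole gene says nothing of where the allele is interrupted, and the labels are therefore not checked by this gene. ELP2 gave no call (-0.13 ± 0.07, limma adjusted p = 0.18).

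Loci known to be controlled by methylation were taken as a list of 13, of which 4 passed the filter. All 4 were called, 3 of them higher, against 1.91% of all genes called. FWA and SDC were near 0 in Col-0 and needed only their met1-7 libraries to pass, while loci silent throughout dropped out. The share called was thus in part set by the filter. The 200 bases before the annotated start of 4 genes that were higher in met1-7, and of ESP, the largest fall among called genes, are given from RefSeq (build TAIR10.1) with each CG, the site that MET1 maintains, in capitals. Methylation was not measured in the files used here.
FWA (chr4:13038160-13038359, plus strand): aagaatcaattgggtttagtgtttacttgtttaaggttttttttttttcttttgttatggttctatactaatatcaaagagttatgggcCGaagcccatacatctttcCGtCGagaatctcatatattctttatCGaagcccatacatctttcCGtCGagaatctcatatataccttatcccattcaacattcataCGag
SDC (chr2:7681962-7682161, plus strand): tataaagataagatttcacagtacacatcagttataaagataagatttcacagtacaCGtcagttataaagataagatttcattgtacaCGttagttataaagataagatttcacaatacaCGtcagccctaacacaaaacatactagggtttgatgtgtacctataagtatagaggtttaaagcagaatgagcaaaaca
QQS (chr3:12348847-12349046, plus strand): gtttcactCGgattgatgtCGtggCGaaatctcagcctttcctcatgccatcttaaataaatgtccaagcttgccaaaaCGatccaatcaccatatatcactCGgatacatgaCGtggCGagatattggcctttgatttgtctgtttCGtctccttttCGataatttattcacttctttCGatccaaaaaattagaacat
AT5G03090 (chr5:725081-725280, plus strand): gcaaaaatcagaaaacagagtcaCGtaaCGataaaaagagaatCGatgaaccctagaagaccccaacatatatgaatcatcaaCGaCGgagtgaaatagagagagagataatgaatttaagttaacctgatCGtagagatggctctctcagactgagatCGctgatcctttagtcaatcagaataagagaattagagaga
ESP (chr1:20173950-20174149, minus strand): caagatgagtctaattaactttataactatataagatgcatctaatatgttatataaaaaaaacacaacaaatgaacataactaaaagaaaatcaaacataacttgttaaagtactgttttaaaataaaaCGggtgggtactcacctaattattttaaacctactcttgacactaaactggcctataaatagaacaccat
The windows hold 7 CG sites at FWA, 3 at SDC, 10 at QQS, 7 at AT5G03090 and 1 at ESP. FWA carries a direct repeat of 38 bases, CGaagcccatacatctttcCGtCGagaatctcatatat, starting 111 and 66 bases before the start, and SDC one of 26 bases, tataaagataagatttcacagtacac, starting 200 and 168 bases before it. The first SDC copy begins at the edge of the window, so the repeat may be longer. Similar stretches that are not exact copies follow in the printed SDC window, and only exact repeats were searched. An exact repeat of at least 20 bases was present in the 200 bases before the start in 8 of 207 higher genes (3.86%), in 4 of 167 lower genes (2.4%) and in 216 of 19709 tested genes (1.1%).

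FWA, a homeodomain transcription factor that delays flowering when expressed outside the seed, had 83.4, 123.51, 59.36 and 66.85 FPKM in met1-7 leaves, against 0.11, 0.01, 0.04 and 0.03 FPKM in Col-0 leaves. Every met1-7 library was far above every Col-0 library (difference 7.20 ± 0.22, limma adjusted p = 1.4e-16). Its locus overlaps AT4G25540. QQS, a gene with no relatives outside the species that affects starch content, had 151.4, 134.56, 152.8 and 156.31 FPKM in met1-7 and 6.23, 13.46, 10.92 and 11.43 FPKM in Col-0, with a difference of 3.81 ± 0.40 (limma adjusted p = 1.6e-06). Unlike FWA, QQS was expressed in Col-0 leaves, and its mean was 14.2-fold higher in met1-7.

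SDC, an F-box protein gene with methylated promoter repeats, did not behave alike in all met1-7 libraries. It had 62.57, 151.74, 0.23 and 2.43 FPKM in met1-7 and at most 0.10 FPKM in Col-0. Replicates 1 and 2 were thus high, replicate 4 low and replicate 3 close to Col-0, although the groups did not overlap (4.48 ± 1.43, limma adjusted p = 0.039). The call was lost under 8 alternatives, among them leaving out met1-7 replicate 1 (limma adjusted p = 0.12) or replicate 2 (0.14). In spaceflight leaves, too, SDC ranged widely among met1-7 libraries, with 161.95, 250.38, 43.82 and 0.58 FPKM, against at most 0.08 FPKM in Col-0.

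BNS, a subunit of the anaphase-promoting complex that lies beside a repeat element, was not silent in Col-0 and was lower in met1-7. It had 13.02, 14.16, 11.55 and 13.17 FPKM in met1-7 leaves, against 25.57, 27.74, 26.42 and 27.85 FPKM in Col-0 leaves, with no overlap (-1.03 ± 0.12, limma adjusted p = 2.5e-06). The call of BNS was lost at a pseudocount of 1 FPKM and without met1-7 replicate 3 (-0.97), both times by the 2-fold minimum alone. The other 9 loci of the list did not pass the filter. The imprinted or repeat-controlled PHE1, HDG3, HDG8, HDG9, MEA, FIS2, AGL36 and SUP stayed at or under 0.22 FPKM in every GC leaf library, and MPC at or under 1.3 FPKM.

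Among the higher genes were many without any reading in Col-0. Of all 33977 genes, 107 were above 0 FPKM in all 4 met1-7 leaf libraries and listed at 0 in all 4 Col-0 leaf libraries, whereas 48 genes showed the reverse. Of the 107, 67 were called, 47 had at least 1 FPKM in every met1-7 library and 12 at least 10 FPKM. Their mean level in met1-7 ran from 0.0275 to 168 FPKM with a median of 1.6 FPKM. The 48 of the reverse were weak, with a highest mean of 3.21 FPKM in Col-0, and 7 were called. Protein-coding loci made up 83 of the 107, long noncoding RNAs 17 and miRNA hairpins 5. In elp2-5 GC leaves 65 of the 107 were also listed at 0 in all 4 libraries and 3 were above 0 in all 4.

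The highest of these was AT5G03090, annotated by RefSeq as an Mto 1 responding down protein, with 168.65, 162.45, 162.69 and 176.89 FPKM in met1-7 leaves and 0 FPKM in all 4 Col-0 leaves. The met1-7 libraries agreed closely, and the fitted difference of 8.39 ± 0.53 (limma adjusted p = 4.2e-10) depends on the pseudocount and is no fold change. MRD1, the second gene of that annotation in the table, had 28.87, 21.88, 25.38 and 19.18 FPKM in met1-7, against 0.04, 0, 0.43 and 0.31 FPKM in Col-0 (5.16 ± 0.45, limma adjusted p = 8e-08). Both members of the annotation were thus higher. MRD1 overlaps AT1G07887 and HEI10, and all 3 were called higher. HEI10, whose protein marks sites of meiotic crossover, had 2.77 to 3.46 FPKM in met1-7 and 0.43 to 0.71 FPKM in Col-0 (1.86 ± 0.16, limma adjusted p = 2.7e-08). Reads of overlapping loci may not have been told apart, since the strand setting of the counting was not given in the sources used here.

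AT3G01345, an uncharacterized protein gene, reached the highest level of all higher genes without a copy elsewhere. It had 210.17, 235.72, 196.84 and 224.54 FPKM in met1-7, against 0.25, 0.14, 0.58 and 0.12 FPKM in Col-0 (8.17 ± 0.73, limma adjusted p = 1.5e-07). AT2G03965, also uncharacterized, had 163.09 to 251.08 FPKM in met1-7 and 0.14 to 0.30 FPKM in Col-0 (8.06 ± 0.21, limma adjusted p = 9.2e-18). It overlaps the noncoding AT2G04655, which was at 26.83 to 44.05 FPKM in met1-7 and 0 in Col-0. A further 3 genes at 0 in Col-0 were AT3G25719, AT2G04735 and AT5G29050, with means of 67.6 ± 18.3, 66.3 ± 25.6 and 31.5 ± 12.7 FPKM in met1-7 (SD, n = 4 each).

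Transposon-derived and noncoding genes were frequent among the higher genes. RefSeq products were grouped after the values had been seen, so the counts are descriptions. The filter drops genes silent in every library, while genes silent outside met1-7 enter through the met1-7 libraries alone. Shares of higher genes are thus partly built in, and whether they exceed that was not tested. This holds for the products, noncoding RNAs and hairpins below as well. Of 28 tested genes annotated as transposase, transposon or polyprotein, 9 were higher (32.1%) and 1 lower, against 1.05% of all genes higher and 0.855% lower. AT1G36085, a mutator-like transposase with 2 near-identical copies, had 45.23 to 51.81 FPKM in met1-7 and 0 to 0.08 FPKM in Col-0. AT4G04265, of the PttA/En/Spm transposase family, had 18.29 to 22.41 FPKM in met1-7 and 0 to 0.12 FPKM in Col-0. Ulp1 proteases, SUMO-cleaving enzymes that some plant transposons carry, were higher in 5 of 6 genes tested, again against 1.05% of all genes, led by AT5G45570 with 19.7 to 27.85 against 0 to 0.05 FPKM.

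Genes annotated as beta-galactosidase-like were called higher in 8 of 23 cases (34.8%), against 1.05% of all genes, and lower in none. AT3G44265 had 60.26, 50.66, 53.73 and 59.87 FPKM in met1-7 leaves, against 0, 0.12, 0.04 and 0.16 FPKM in Col-0 leaves (6.61 ± 0.11, limma adjusted p = 4.7e-21). AT4G29200 and AT3G44070 followed with 16 to 45.54 and 18.14 to 26.98 FPKM in met1-7, against at most 0.1 and 0.05 FPKM in Col-0. The other 15 tested genes of this annotation gave no call, and the median difference over all 23 was 0.03. Uncharacterized or hypothetical proteins gave 58 higher and 19 lower genes of 1303 tested. Long noncoding RNAs gave 38 of the 209 higher genes, or 5.45% of the 697 tested, against 1.05% of all genes.

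Of 17 miRNA hairpin loci tested, 6 were higher in met1-7 and none lower, against 1.05% of all genes higher. Since 5 of the 6 were the MIR854 loci on chromosome 5, whose reads cannot be separated, the count is not one of independent loci. For these 5 RefSeq gives 1 mature sequence, shown here with its seed, bases 2 to 8, in capitals.
miR854: gATGAGGAtagggaggaggag
MIR854c had 115.71, 112.79, 71.99 and 171.03 FPKM in met1-7 leaves and 0 in all Col-0 leaves, and MIR854a had 53.45 to 150.39 FPKM and 0. MIR854b, MIR854d and MIR854e carried the same values in every library, 53.99 to 136.48 FPKM in met1-7 and 0 in Col-0. Each hairpin has 12 near-identical copies and lies inside a locus annotated as a pseudogene, so these reads cannot be assigned to 1 locus, and poly(A) libraries do not measure the mature miRNA. They were therefore read as 1 signal.

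**Figure D2:**
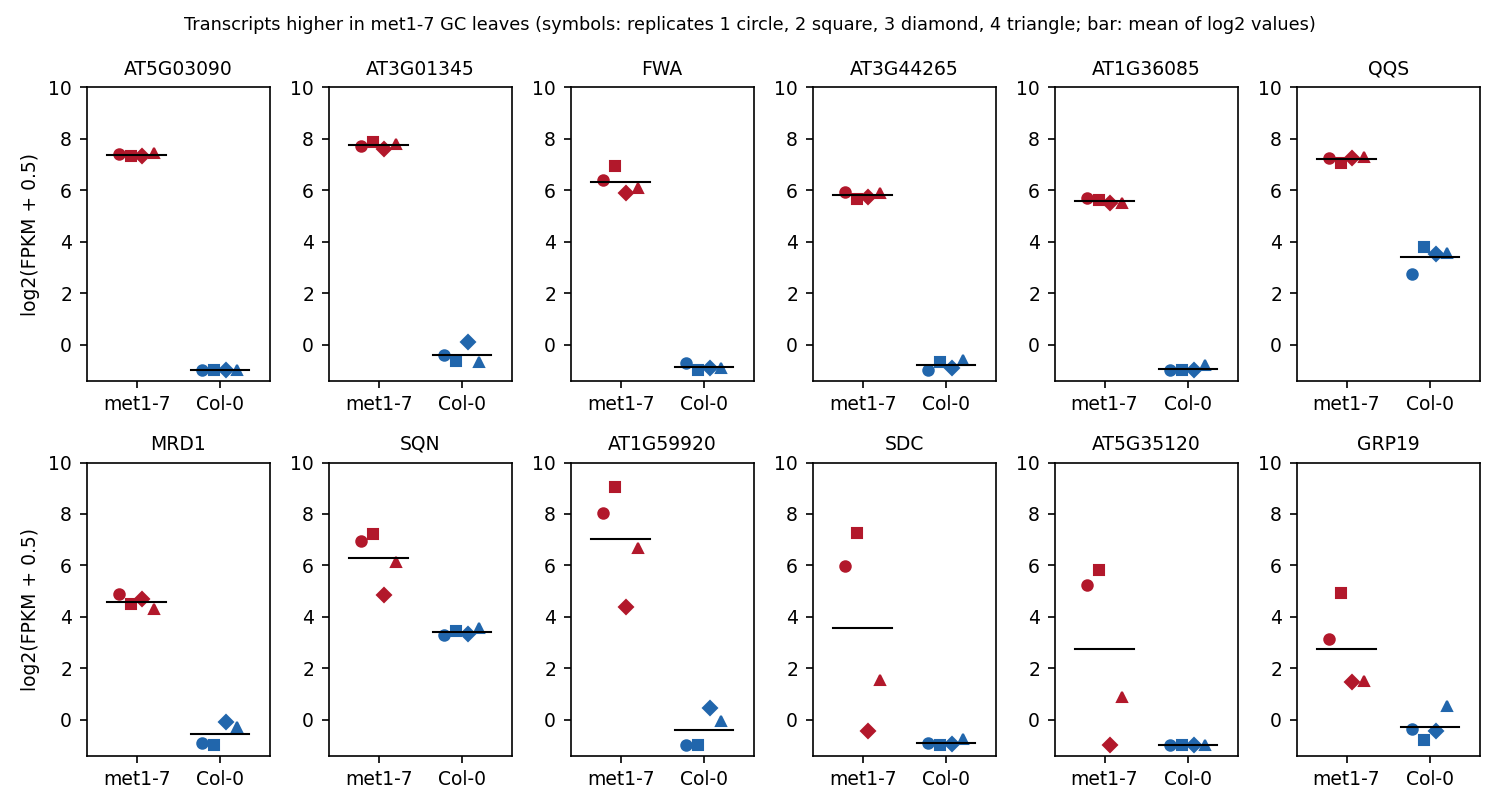
Level of 12 genes higher in met1-7, as log2(FPKM + 0.5), in each of the 4 met1-7 GC leaf libraries (left in each panel) and the 4 Col-0 GC leaf libraries (right), with the symbol giving the replicate and the bar the mean of the log2 values. AT5G03090, AT3G01345 and QQS sit close together in met1-7, whereas SDC, AT5G35120 and AT1G59920 spread widely with replicates 1 and 2 on top.

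The met1-7 libraries did not agree for every higher gene. The highest over the lowest met1-7 library, each plus 0.5 FPKM, had a median of 1.78 over the 209 higher genes, but reached 5 or more in 27. In 16 of these 27, replicates 1 and 2 both stood above replicates 3 and 4, and in 22 replicate 3 was the lowest. The first pattern held for 66 of all 209 higher genes and for 18.8% of all tested genes.

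SQN, the cyclophilin 40 that supports miRNA action, was one of the 27. It had 121.33, 146.71, 28.35 and 68.64 FPKM in met1-7, against 9.37, 10.41, 9.61 and 11.42 FPKM in Col-0 (2.86 ± 0.45, limma adjusted p = 0.00022). The MADS-box genes AT1G59920 and AT1G59930, near-identical neighbours, had 20.29 to 533.2 and 22.95 to 793.69 FPKM in met1-7, against at most 0.87 and 1.74 FPKM in Col-0. Their reads cannot be separated. The MADS-box gene AT5G35120, elsewhere on the genome, had 37.08, 55.61, 0 and 1.35 FPKM in met1-7 and 0 in Col-0, so replicate 3 could not be told from Col-0. Its call (limma adjusted p = 0.021) was lost without replicate 1 (0.08) or replicate 2 (0.084).

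The neighbouring GRP19 and GRP20, glycine-rich proteins of the pollen coat, were called higher in leaves. GRP19 had 8.38, 29.8, 2.24 and 2.36 FPKM in met1-7 and 0.08 to 0.94 FPKM in Col-0 (3.03 ± 0.71, limma adjusted p = 0.0065). GRP20 had 0.88 to 7.17 FPKM in met1-7 and 0.08 to 0.85 FPKM in Col-0 (1.63 ± 0.41, limma adjusted p = 0.009). NAC077, a NAC transcription factor, had 5.55, 8.26, 1.08 and 1.79 FPKM in met1-7 and 0 in Col-0. In all of these, replicates 1 and 2 were above replicates 3 and 4.

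Immune receptors of the NLR class were higher by small amounts. NLR proteins sense pathogen effectors inside the cell, and several of their gene clusters are known to be under epigenetic control. Of 18 members tested, 16 had a positive difference, 10 had a limma adjusted p under 0.05 with a higher level, against 7.40% of all genes, and 2 were called. The list's median was 0.37, against -0.0026 for all genes. SNC1 had 58.32, 59.01, 58.51 and 55.99 FPKM in met1-7, against 31.04, 28.36, 34.31 and 31.49 FPKM in Col-0 (0.88 ± 0.11, limma adjusted p = 9.4e-06). CHS3 (0.89 ± 0.11) and RPP5 (0.78 ± 0.13) passed the p threshold as well and stayed under 2-fold.

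WRR4, which gives resistance to white rust, had 14.4, 14.12, 13.26 and 12.87 FPKM in met1-7, against 6.51, 5.92, 6.5 and 6.96 FPKM in Col-0 (1.02 ± 0.18, limma adjusted p = 0.00071). AT4G19500, listed as the downy mildew resistance gene RPP2A, had 19.82 to 21.25 FPKM in met1-7 and 8.77 to 10.91 FPKM in Col-0 (1.02 ± 0.11, limma adjusted p = 9.8e-07). Both lie at the 2-fold limit, and under several alternatives, such as a pseudocount of 1 FPKM (0.97 and 0.98), the call was lost. In elp2-5 GC leaves WRR4 was at 11.21 to 18.02 FPKM and AT4G19500 at 16.76 to 19.24 FPKM, so the met1-7 and elp2-5 ranges overlapped for WRR4 and were adjacent for AT4G19500. In Col-0 FT leaf replicate 2 WRR4 was at 13.25 FPKM and AT4G19500 at 20.06 FPKM, within the met1-7 FT leaf ranges of 10.83 to 13.57 and 19.57 to 21.27 FPKM, against 6.34 to 8.84 and 11.14 to 14.91 FPKM in the other 3 Col-0 FT leaf libraries. For both genes, then, a level like that of met1-7 was also seen in elp2-5 and in 1 Col-0 library, and whether the GC difference belongs to met1-7 or to the Col-0 plants compared cannot be told apart.

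In the RPP5 region of chromosome 4, 3 transcripts were called lower beside the higher SNC1, RPP4 and RPP5. AT4G16857, annotated as a TIR-NBS-LRR family protein before RPP4, had 0.04, 0, 0.04 and 0 FPKM in met1-7, against 11.94, 13.98, 9.9 and 16.29 FPKM in Col-0 (-4.68 ± 0.32, limma adjusted p = 5.2e-10). AT4G16892, a noncoding RNA, had 0.19 to 0.4 FPKM in met1-7 and 1.09 to 2.18 FPKM in Col-0 (-1.47 ± 0.18, limma adjusted p = 4.9e-06). AT4G16920, which has a near-identical copy, had 0.82 to 1.1 FPKM in met1-7 and 2.05 to 2.92 FPKM in Col-0, and its call was lost at a pseudocount of 1 FPKM (-0.88). RPP4 had a difference of 0.43 ± 0.12 (limma adjusted p = 0.018). Over all 130 tested genes annotated as disease resistance proteins, 5 were higher (3.85%), 4 lower (3.08%) and the median difference was 0.25. The shares of all genes were 1.05% and 0.855%. AT1G58807 and AT1G59124 had the same difference (1.08), so the count is not one of independent loci. Against elp2-5, WRR4, AT1G58807, AT1G59124 and AT1G59218 differed by -0.13 to 0.25 and AT4G09430 by 1.31. AT1G58807 was at 45.42 FPKM in Col-0 FT leaf replicate 2, against 27.98 to 31.98 FPKM in the other Col-0 FT leaves.

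The salicylic acid pathway, which NLR activation feeds in plants, had no call. None of its 17 tested genes had a limma adjusted p under 0.05, 15 had a positive difference and the median was 0.27. PR1, the usual marker, had 80.24, 312.04, 84.13 and 35.61 FPKM in met1-7, against 38.86, 58.75, 73.74 and 179.23 FPKM in Col-0, with wide overlap (0.33 ± 1.11, limma adjusted p = 0.88).

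The largest fall among called genes was that of ESP, the epithiospecifier protein. When a leaf is wounded, myrosinases cleave glucosinolates, and ESP directs the products to nitriles in place of isothiocyanates. ESP had 6.45, 3.49, 5.93 and 8.12 FPKM in met1-7 leaves, against 404.38, 691.2, 319.08 and 369.82 FPKM in Col-0 leaves. The Col-0 mean was 74.4-fold higher, without overlap (-6.09 ± 0.72, limma adjusted p = 8.9e-06), and the difference stayed between -6.24 and -5.86 over the alternatives. ESM1, which favours isothiocyanates, had 636.13, 793.91, 496.8 and 609.71 FPKM in met1-7, against 304.42, 311.81, 441.78 and 329.87 FPKM in Col-0. Its difference of 0.87 ± 0.16 passed the p threshold (0.0011 by limma) but not the 2-fold minimum.

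Of the 19 glucosinolate genes tested, ESP alone was called. A further 6 had a limma adjusted p under 0.05 with a lower level in met1-7, making 7 of 19 against 8.17% of all genes, and the median was -0.29. These 6 act in aliphatic glucosinolate synthesis or in its shared steps: CYP79F1 (-0.51), CYP83A1 (-0.39), SUR1 (-0.36), SOT17 (-0.45), SOT18 (-0.45) and FMOGS-OX1 (-0.71). FMOGS-OX1 had 24.18 to 29.81 FPKM in met1-7 and 36.19 to 54.51 FPKM in Col-0. MYB28, the regulator of the aliphatic branch, had 52.5 to 54.27 FPKM in met1-7 and 45.4 to 57.17 FPKM in Col-0 and gave no call.

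ESP was not uniformly expressed among Col-0 plants elsewhere in the study. In spaceflight leaves it had 6.05, 3.71, 4.45 and 6.72 FPKM in met1-7, against 488.71, 11.59, 261.74 and 232.81 FPKM in Col-0, so Col-0 FT leaf replicate 2 lay near the met1-7 level. In elp2-5 GC leaves it had 18.51, 15.93, 21.24 and 20.95 FPKM. Against elp2-5, the met1-7 difference was -1.64 with a limma adjusted p of 0.063. AT4G24420, an RNA-binding protein gene, had a like pattern. It stood at 0.13 to 0.29 FPKM in met1-7 and 9.55 to 17.1 FPKM in Col-0 GC leaves (-4.30 ± 0.64, limma adjusted p = 0.00011), but 0.05 FPKM in Col-0 FT leaf replicate 2, 2.59 FPKM in Col-0 GC root replicate 4, against 29.44 to 35.07 FPKM in the other Col-0 GC roots, and 0.24 to 0.83 FPKM in elp2-5 GC leaves.

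This was examined after the values had been seen, by counting the lower genes for which 1 Col-0 library lay more than 4-fold under the lowest of the other 3, where those had at least 1 FPKM. Col-0 FT leaf replicate 2 met this in 12 of 140 lower genes (8.57%), against 0.168% of all tested genes, and the other 3 Col-0 FT leaf libraries in 0 or 1. Col-0 GC root replicate 4 met it in 19 of 115 (16.5%), against 0.29%, and the other 3 root libraries in 0 of 99. The 4 Col-0 GC leaf libraries met it in 0 to 2 of 150 to 153. By rank they were not alike, since replicate 3 was the lowest of the 4 in 83 of the 170 lower genes (48.8%), against 25.8% of all tested genes. In all, 25 lower genes were involved, 6 of them in both libraries, and 2 of the 25 were called lower against elp2-5 GC leaves. The other 145 did not meet this limit, which a gene with a difference near 2-fold could hardly reach. Over these 145, Col-0 FT leaf replicate 2 had a median of -0.26 (log2) relative to the mean of the other 3 Col-0 FT leaf libraries and was the lowest of the 4 in 71 (49%), against a median of 0.02 and 25.4% for all tested genes. XW6, for example, was at 61.46 FPKM in that library, against 97.09 to 125.88 FPKM in the other Col-0 FT leaves and 58.42 to 75.57 FPKM in met1-7 FT leaves.

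The elp2-5 GC leaves, which are compared with the same 4 Col-0 libraries, lay near met1-7 for the 25 genes. Over the 25 genes the median of the mean levels was 0.185 FPKM in met1-7, 0.255 FPKM in elp2-5 and 3.21 FPKM in Col-0 GC leaves, and over the other 145 it was 1.64, 3.9 and 5.58 FPKM in the same order. Within Col-0, GC leaf replicate 3 was the lowest of the 4 GC leaf libraries in 19 of the 25 genes (76%). Its median was -0.52 (log2) relative to the mean of the others. Col-0 FT root replicate 4 was the lowest of its group in 17 (68%), with a median of -0.69. Whether the lower level of the 25 genes, ESP and AT4G24420 included, belongs to met1-7 or to the Col-0 plants of the GC leaf libraries cannot be told apart from these values.

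**Figure D3:**
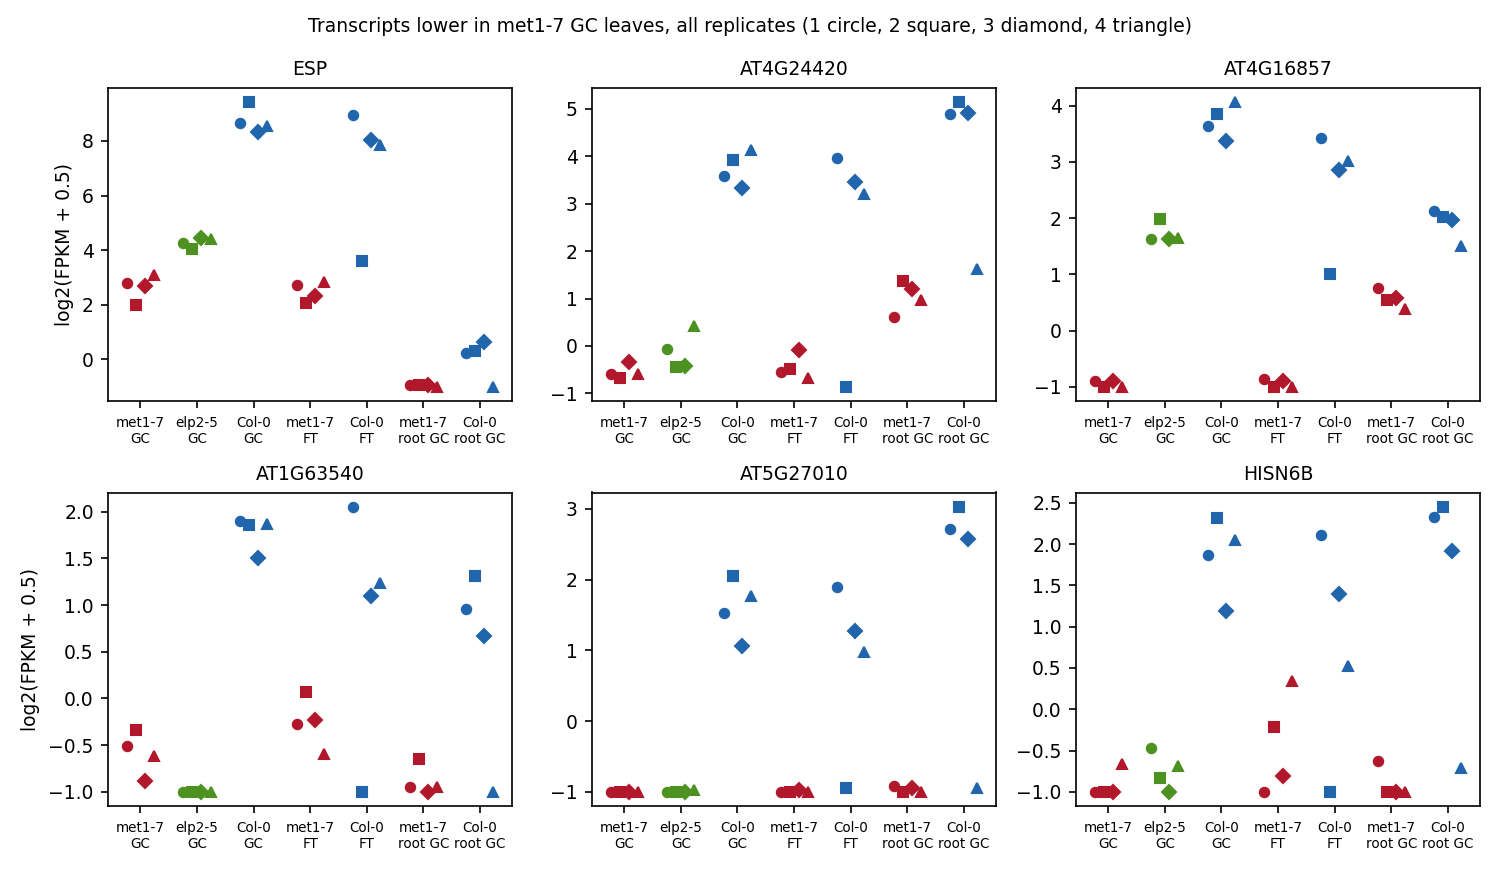
Level of 6 genes lower in met1-7, as log2(FPKM + 0.5), in every replicate of met1-7, elp2-5 and Col-0 GC leaves, of met1-7 and Col-0 FT leaves and of met1-7 and Col-0 GC roots, with the symbol giving the replicate. Col-0 FT leaf replicate 2 lies near the met1-7 libraries, at 11.59 FPKM for ESP and 0.05 FPKM for AT4G24420, and elp2-5 GC leaves lie below Col-0 GC leaves for all 6 genes, but above met1-7 for ESP and AT4G16857.

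Several of these genes were at or near 0 in met1-7. AT5G27010, an ARM repeat protein gene, had 0 FPKM in all 4 met1-7 GC leaves and 2.39, 3.64, 1.58 and 2.91 FPKM in Col-0 GC leaves. Its Col-0 level was 0.02 FPKM in FT leaf replicate 2 and also in GC root replicate 4, and elp2-5 GC leaves had at most 0.01 FPKM. The deacetylase gene hda10, which has 2 near-identical copies, had 0 FPKM in met1-7, 0.82 to 4.93 FPKM in Col-0 GC leaves and 0 FPKM in both of those Col-0 libraries. HISN6B, an enzyme of histidine synthesis, had 0 to 0.13 FPKM in met1-7 and 1.79 to 4.48 FPKM in Col-0 GC leaves, and AT1G63540 had 0.04 to 0.29 FPKM and 2.33 to 3.22 FPKM. HISN6B and AT1G63540 were at 0 FPKM in Col-0 FT leaf replicate 2.

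A deep fall outside the 25 genes was that of MUB5. MUB5, a membrane-anchored ubiquitin-fold protein, had 0.08, 0.1, 0.3 and 0.15 FPKM in met1-7, against 2.51, 2.47, 2.81 and 3.14 FPKM in Col-0 GC leaves (-2.30 ± 0.17, limma adjusted p = 2.3e-09). Its level was 3.33 to 3.95 FPKM in all 4 Col-0 FT leaves and 1.64 to 2.13 FPKM in elp2-5 GC leaves. TRAF-like proteins were lower in 4 of 31 tested genes, against 0.855% of all genes, and higher in none, and 1 of the 4, AT3G44790, was among the 25 genes above. AT2G04170 had 0.49 to 1.19 FPKM in met1-7 and 5.31 to 9.71 FPKM in Col-0 (-2.39 ± 0.28, limma adjusted p = 3.6e-06).

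Of the 14 jasmonate genes tested 3 were called, all lower, against 0.855% of all genes, and all 3 calls ended without Col-0 GC leaf replicate 2. Jasmonate is made from linolenic acid by enzymes that include LOX2 and OPR3, and it induces storage, lectin and anti-herbivore proteins. VSP1, a vegetative storage protein, had 4.59, 1.25, 21.58 and 9.64 FPKM in met1-7, against 44.81, 315.38, 43.71 and 38.83 FPKM in Col-0. Every Col-0 library lay above every met1-7 library (-3.40 ± 0.91, limma adjusted p = 0.015). Without Col-0 replicate 2 the difference of VSP1 was -2.68, and its limma adjusted p of 0.059 no longer passed. Without met1-7 replicate 2, the lowest met1-7 library, it was 0.061, and VSP2 (0.053) and LOX2 (0.050) did not pass either. With only the 8 libraries compared in the fit, VSP1 and VSP2 lost their calls too (limma adjusted p = 0.077 and 0.073).

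VSP2 had 7.18, 2.73, 8.99 and 5.92 FPKM in met1-7, against 23.29, 187.73, 23.21 and 21.56 FPKM in Col-0 (-2.65, limma adjusted p = 0.015, and 0.051 without Col-0 replicate 2). LOX2 had 56.04, 50.59, 109.13 and 91.22 FPKM in met1-7, against 152.79, 307.76, 144.92 and 154.95 FPKM in Col-0 (-1.3, limma adjusted p = 0.013, and 0.052 without it). Of the other 11 genes OPR3 passed the p threshold only (-0.65, 0.010 by limma). The repressors JAZ1, JAZ5, JAZ7 and JAZ10 and the regulator MYC2 gave no call, nor did PDF1.2A, with 101.34 to 239.66 FPKM in met1-7 and 96.31 to 459.8 FPKM in Col-0.

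Outside the list, BAM5, a beta-amylase, had 0.97 to 5.63 FPKM in met1-7 and 9.48 to 61.78 FPKM in Col-0 (-3.15, limma adjusted p = 0.0033, and 0.015 without Col-0 replicate 2). The jacalin lectin JAL23 had 10.43 to 32.87 FPKM in met1-7 and 57.54 to 170.02 FPKM in Col-0 (-2.24, limma adjusted p = 0.0055, and 0.023 without it). Both kept their calls. The thionin THI2.1 (-2.98), the myrosinase-binding MBP2 (-2.08) and the cystine lyase CORI3 (-1.12) lost theirs without that library, with limma adjusted p of 0.056, 0.060 and 0.14. In elp2-5 GC leaves VSP2 was at 420.34 to 1503.09 FPKM and LOX2 at 387.55 to 894.25 FPKM, above every met1-7 and Col-0 GC leaf library.

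**Figure D4:**
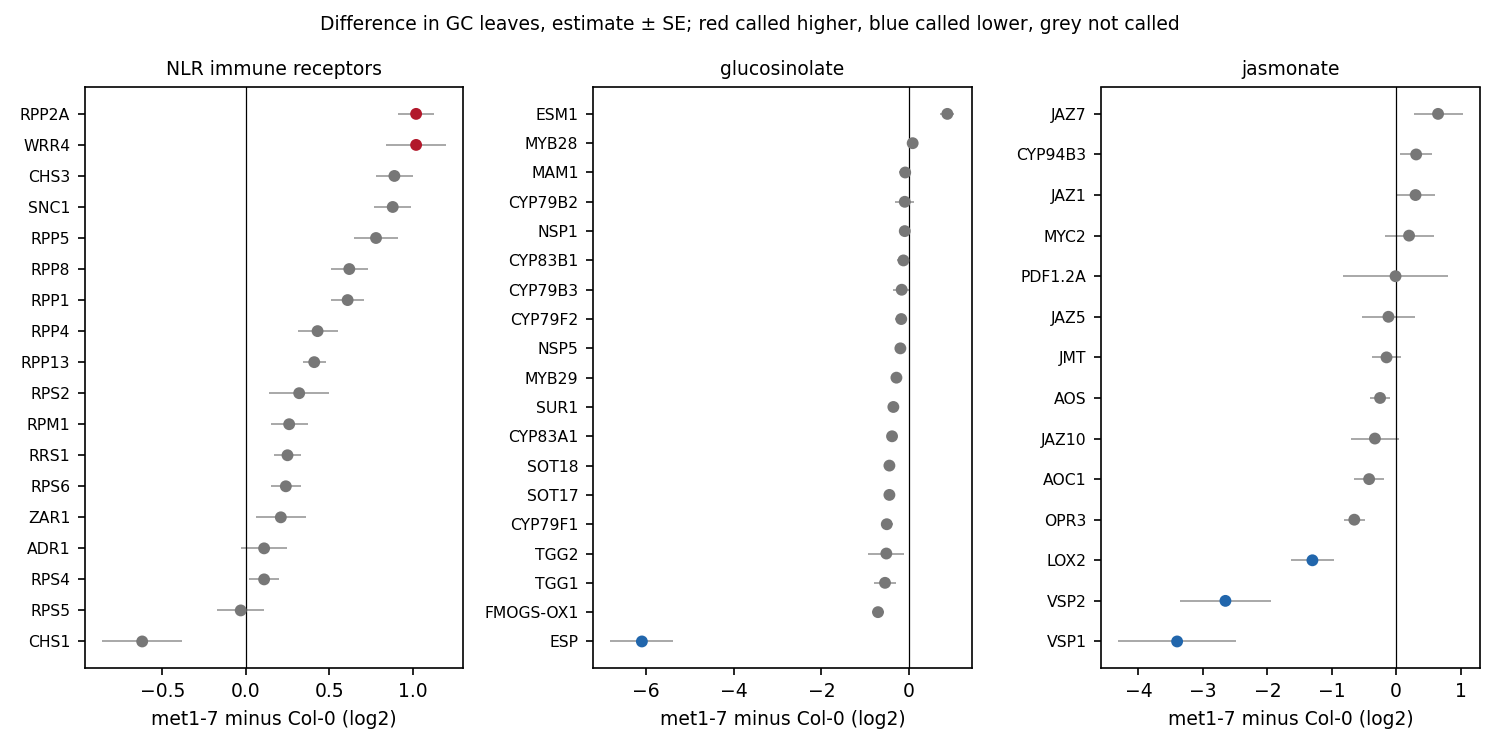
Difference between met1-7 and Col-0 GC leaves (log2, estimate ± SE) for the tested members of the NLR, glucosinolate and jasmonate lists, with calls in red (higher) and blue (lower) and other genes in grey. In the NLR list 16 of 18 points lie right of 0, with 2 called, whereas ESP and the 3 called jasmonate genes lie far to the left.

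Cold and abscisic acid transcripts gave 2 calls, both lower, of 14 tested, against 0.855% of all genes. The neighbours COR15A and COR15B encode chloroplast proteins that protect membranes in the cold. COR15A had 3.76, 2.84, 5.88 and 5.02 FPKM in met1-7, against 15.24, 16.96, 12.89 and 13.53 FPKM in Col-0 (-1.67 ± 0.25, limma adjusted p = 0.00014). COR15B had 0.34 to 1.45 FPKM in met1-7 and 3 to 5.31 FPKM in Col-0 (-1.73 ± 0.34, limma adjusted p = 0.0015). RD20, a drought-induced caleosin named after its values were seen, had 0.72 to 1.75 FPKM in met1-7 and 4.86 to 7.45 FPKM in Col-0 (-1.88 ± 0.40, limma adjusted p = 0.0033).

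PAP16, a purple acid phosphatase also named after its values were seen, had 1.21 to 1.56 FPKM in met1-7 and 3.77 to 5.53 FPKM in Col-0 (-1.44 ± 0.20, limma adjusted p = 3.1e-05). UF3GT, a glycosyltransferase of anthocyanin synthesis, had 1.58 to 2.36 FPKM in met1-7 and 4.56 to 9.49 FPKM in Col-0 (-1.32 ± 0.30, limma adjusted p = 0.005) and was the only call among 17 anthocyanin and flavonoid genes.

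Of 15 flowering genes tested, 1 was called, lower in met1-7, against 0.855% of all genes, and 3 passed the p threshold, with a list median of -0.31. SPL3, a promoter of flowering that miR156 represses, had 18.85, 11.62, 18.08 and 18.94 FPKM in met1-7, against 35.47, 38.33, 32.7 and 35.48 FPKM in Col-0. It was the single call of the list (-1.07 ± 0.14, limma adjusted p = 1.3e-05), and without met1-7 replicate 2 its difference was -0.91. AGL8, a MADS-box gene of the floral transition outside the list, had 0.69 to 0.99 FPKM in met1-7 and 3.03 to 3.89 FPKM in Col-0 (-1.60 ± 0.27, limma adjusted p = 0.0003). SOC1 (-0.58) and FD (-0.61) passed the p threshold only. Flower markers were uneven beside this list: 2 of 6 tested passed the p threshold, both lower, none was called, and their sum, mostly SEP3, was 30.4 to 43.7 FPKM in met1-7 and 20 to 42.4 FPKM in Col-0. LFY had 0.11 to 0.41 FPKM in met1-7 and 0.53 to 1.23 FPKM in Col-0 (-0.88, limma adjusted p = 0.0086), and AP1 0.04 to 0.42 and 0.51 to 1.09 FPKM (-0.86, 0.031). Their part in the lower level of the flowering genes was not tested.

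Genes that set, read or remove DNA methylation gave no call. The lists held 15 tested genes of methylation maintenance and heterochromatin, 19 of RNA-directed DNA methylation and 8 of active demethylation. With 1.91% of all genes called, no call in lists this short is near the share of all genes. In the same order, 4, 1 and 2 genes passed the p threshold alone, against 15.6% of all genes. IBM1, a histone demethylase that guards gene bodies, had 4.95, 5.19, 4.43 and 3.78 FPKM in met1-7, against 7.78, 8.4, 8.19 and 8.21 FPKM in Col-0. It did not overlap between the groups, but its difference of -0.77 ± 0.08 (limma adjusted p = 1.3e-06) was under 2-fold. ROS1, the main leaf demethylase and given as DML1 in RefSeq, had 10.03 to 14.68 FPKM in met1-7 and 19.19 to 21.71 FPKM in Col-0, and its limma adjusted p was 0.055. DML3 of the demethylation list had 0.67 to 1.0 FPKM in met1-7 and 1.38 to 2.53 FPKM in Col-0, without overlap (-0.78, limma adjusted p = 0.0024). DML2 of the same list was higher (0.3, limma adjusted p = 0.019). SUVH9, a reader of methylated DNA, was higher (0.63, limma adjusted p = 1.2e-06), and VIM3, a cofactor of MET1, lower (-0.40, 0.0036).

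The chromomethylase CMT3 had 13.5 to 16.66 FPKM in met1-7 and 14.47 to 16.01 FPKM in Col-0, and the remodeller DDM1, CHR1 in RefSeq, 7.19 to 9.27 and 7.58 to 8.48 FPKM. No call came from the 13 DNA damage genes, the 10 heat shock genes or the 20 nuclear photosystem and Rubisco genes tested. The share of all genes called was 1.91%. In the last list 16 differences were negative, with a median of -0.11, and RBCS1A had 18299.07 to 19755.13 FPKM in met1-7 and 18399.41 to 20218.55 FPKM in Col-0.

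The genes were then followed in spaceflight and in roots. In spaceflight leaves, 171 of the 209 higher genes (81.8%) were called higher again, which is 78.1% of the 219 higher calls there (1.1% of genes tested). Of the 170 lower genes, 72 (42.4%) were called lower again, 75% of the 96 lower calls there (0.483%). None was called the opposite way, and the median spaceflight difference was 2.88 for the higher and -0.99 for the lower genes. Without Col-0 FT leaf replicate 2, 262 genes in place of 243 were shared in direction. The difference between the 2 environments was itself tested as an interaction: limma called 0 genes and gave 0 adjusted p under 0.05, with 2095 unadjusted p under 0.05.

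In GC roots, 140 higher genes (67%) were called higher, 67.3% of the 208 higher calls there (0.99% of 21000 genes tested), and 34 lower genes (20%) were called lower, 23.6% of 144 (0.686%). Only 184 of the higher and 127 of the lower genes passed the filter in roots. FWA had 24.77 to 39.31 FPKM in met1-7 roots and at most 0.09 FPKM in Col-0 roots, and AT5G03090 had 122.16 to 167.08 FPKM and at most 1.69 FPKM. SQN differed by organ in level: 37.35 to 40.56 FPKM in met1-7 roots and 28.55 to 32.04 FPKM in Col-0 roots, a difference of 0.34 (limma adjusted p = 0.038), under the 2-fold minimum. A total of 136 higher and 21 lower genes were called in GC leaves, FT leaves and GC roots alike.

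**Figure D5:**
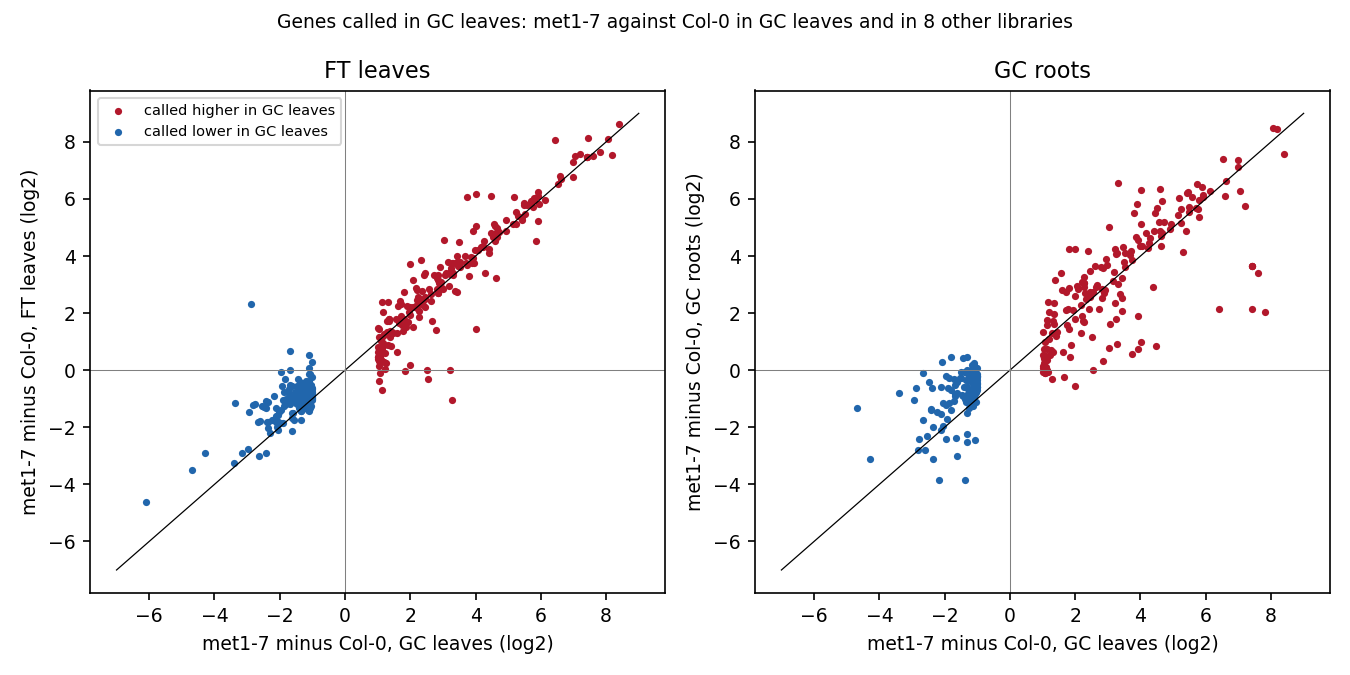
Difference between met1-7 and Col-0 (log2) of the genes called in GC leaves, plotted against the same difference in FT leaves (left panel) and GC roots (right panel), with genes higher in GC leaves in red and lower ones in blue and the line marking equal differences. Higher genes have a median of 2.88 in FT leaves and 2.94 in GC roots. Some lie far from the line, such as AT5G02105 in FT leaves (3.28 against -1.06) and MIR854c in GC roots (7.82 against 2.04). Lower genes mostly lie nearer to 0, with medians of -0.99 and -0.64.

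The elp2-5 GC leaves, grown beside both groups, gave a second set to compare with. That comparison uses the same 4 met1-7 libraries and is therefore not independent. Against elp2-5, 1410 genes were called in all (7.09%), 440 higher (2.21%) and 970 lower (4.88%), with a median difference of -0.14. Of the 209 genes higher than in Col-0, 174 (83.3%) were also higher than in elp2-5, with a median difference of 2.57. Of the 170 lower genes, 70 (41.2%) were also lower than in elp2-5, with a median of -0.73, and 4 were called higher than in elp2-5. The median level of the lower genes was 1.35 FPKM in met1-7, 2.84 FPKM in elp2-5 and 5.07 FPKM in Col-0, and that of the higher genes 6.37, 0.08 and 0.04 FPKM.

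Those 4 were AT1G04660 (1.3), AT1G12080 (1.52), SPL3 (1.19) and AT2G42170 (1.02). SPL3 had 11.62 to 18.94 FPKM in met1-7 GC leaves, against 6.26 to 7.94 FPKM in elp2-5 GC leaves, so its order was Col-0, met1-7, elp2-5 from high to low without overlap. The higher genes MRD1 and QQS had intermediate levels in elp2-5, 2.86 to 21.85 FPKM for MRD1 and 16.13 to 58.88 FPKM for QQS. FWA, at 0.05 to 0.16 FPKM, and AT3G44265, at 0.07 to 0.22 FPKM, stayed near 0 in elp2-5.

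By position, the higher genes lay among loci that RefSeq annotates as pseudogenes more often than other genes did. Of the 20 nearest annotated loci, the median share of pseudogenes was 20% around higher genes, 5% around lower genes and 0% around all tested genes. At least 10 of the 20 were pseudogenes for 65 of 207 higher genes (31.4%), 10 lower genes (5.99%) and 1.7% of all. A higher gene stood next to another higher gene in 32 cases (15.5%), against 1.09% of all genes, and a lower gene next to another lower gene in 6 (3.59%), against 0.989%. The higher neighbours include overlapping loci, namely MRD1 with AT1G07887 and HEI10, and AT2G03965 with AT2G04655. They also include the near-identical AT1G59920 and AT1G59930, and MIR854c, MIR854a and MIR854e. Their reads may be shared, so the count is not one of independent loci. COR15A with COR15B and VSP1 with VSP2 were among the lower neighbours. Every nuclear chromosome carried calls, with 0.92% to 1.27% of its tested genes higher and 0.663% to 1.06% lower.

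The sets differed little in the median number of upstream CG sites, and more in the share of genes with many sites. The 300 bases before the annotated start held a median of 7 CG sites in higher genes, 7 in lower genes and 6 in all tested genes. At least 10 sites were present in 32.4% of higher, 25.7% of lower and 21.2% of all genes. A near-identical copy elsewhere in the genome was found for 36 higher genes (17.2%), against 1.54% of all tested genes, and leaving such genes out gave 173 higher and 161 lower calls. Of all 33977 genes, tested or not, 1448 had such a copy, so the share among tested genes depends on the filter.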

How the data were processed

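The authors deposited FPKM values per gene, given to 2 decimals, for 24 leaf libraries in 1 table and 24 root libraries in another. Per the labels and the methods of the study, poly(A)-selected RNA was made into strand-marked libraries, and the submitters' processing notes name FastQC, Trimmomatic, STAR, RSEM and edgeR with the TAIR10 build, without versions. Raw counts were not used here, so the count test of the study was replaced by limma. Depth is known only as a relative value from the steps of low FPKM values, and no counting interval is given. All 8 columns compared were matched to samples by their titles, and 0 columns lacked a sample.

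Values were taken as log2(FPKM + 0.5) after a filter of at least 1 FPKM in at least 4 of the 24 libraries of the organ. limma 3.58.1 in R 4.3.3 fitted 6 group means over the 24 libraries, with a trended and robust prior, and p-values were adjusted over all genes tested by the Benjamini-Hochberg method. In simulated leaf data of 19877 genes, 183 of 200 genes changed by 2 on the log2 scale were recovered, with 1 false call. The members of a group are labelled as replicates of pooled plants, so p-values measure the spread between those samples, which may be partly technical. Of 32833 locus tags, 32548 were matched to RefSeq TAIR10.1, from which names, products, neighbours and sequences were read with Python 3.11.15. RefSeq coordinates refer to that build. Near-identical copies were found with BLAST 2.17.0 at 95% identity over 80% of the transcript.

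The named genes were MET1 and ELP2, followed by genes taken by rule. One rule took the 10 largest rises and falls without overlap, above 0 FPKM in all 8 libraries and without a copy. Another took the 8 rises and 8 falls with the largest difference of mean FPKM. The 10 highest genes listed at 0 in Col-0 and the 4 highest of the reverse were included. So were the called genes of the lists or, for a list with none, its 2 most abundant. Last came the methylation-controlled loci with ROS1, IBM1, CMT3, DDM1 and VIM1 to VIM3. Other genes were named after their values were seen, among them RD20, SQN, HEI10, PAP16, HISN6B and those of the product families. The members and lists were chosen with earlier results of these data known. Alternatives changed the pseudocount, filter, scaling, library weights, samples fitted and the replicate block, left out each replicate, and, added after the data were seen, left out Col-0 FT leaf replicate 2 and Col-0 GC root replicate 4.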

Additional observations from a re-analysis of the deposited data

Results flagged for a closer look

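Single libraries that stood apart from the other 3 of their group were searched in 121 groups of 4 values, where chance alone marks about 1 in 20, and 12 were found. Col-0 GC leaf replicate 2 accounted for 7 of them. It was the highest Col-0 library for VSP1 (315.38 FPKM), VSP2 (187.73 FPKM), LOX2 (307.76 FPKM), JAL23 (170.02 FPKM), THI2.1 (39.93 FPKM) and CORI3 (105.59 FPKM), all jasmonate-responsive, and for UF3GT (9.49 FPKM). Leaving it out ended the calls of VSP1, VSP2, LOX2, THI2.1 and CORI3, and those of JAL23 and UF3GT remained.

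The summed level of 9 seed markers was 980 FPKM in Col-0 GC leaf replicate 4. AT1G63540 was lowest in Col-0 GC leaf replicate 3 (2.33 FPKM). In met1-7 GC leaves, AT2G04170 was lowest in replicate 1 (0.49 FPKM), SPL3 in replicate 2 (11.62 FPKM) and HEI10 in replicate 4 (2.77 FPKM).

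Genes called in GC leaves were also searched for a difference of opposite sign in GC roots with no overlap in either organ. AT1G59780, an NB-ARC disease resistance gene, averaged 0.0375 FPKM in met1-7 and 1.38 FPKM in Col-0 leaves (log2 difference -1.80), and 4.77 FPKM in met1-7 and 3.31 FPKM in Col-0 roots (0.48). LOX2 averaged 76.7 FPKM in met1-7 and 190.0 FPKM in Col-0 leaves (-1.30), and 0.305 FPKM in met1-7 and 0.0775 FPKM in Col-0 roots (0.48). The difference between organs was not tested for either gene.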

How the results depend on the processing

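The call was 2-fold with an adjusted p under 0.05. Leaving out each replicate gave 187 to 214 higher and 144 to 188 lower genes (main 209 and 170), and 8 to 14 called list members (main 14), 8 without Col-0 replicate 2 and 9 without met1-7 replicate 2. The reverse set, at 0 in met1-7, held 59 to 80 genes (main 48), with 80 without Col-0 replicate 1 and 74 without replicate 3, as fewer libraries had to be above 0. Cell type markers gave 0 to 1 call (main 0), 1 without Col-0 replicate 4, 1 at a pseudocount of 0.1 FPKM and 2 after quantile normalization, and the cause was not tested.

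Testing only genes detected in some library of each genotype gave 131 higher genes, since genes at 0 in Col-0 drop out by construction. With only the 8 libraries of a comparison in the fit, and so fewer samples for the spread, 316 genes were called in GC leaves (main 379). Of these, 173 were higher and 143 lower (main 209 and 170). In FT leaves 196 genes were called (main 315), in GC roots 226 (main 352), and 157 were shared between GC and FT leaves (main 243). In GC leaves 6 named genes lost their calls, VSP1, VSP2 and THI2.1 (limma adjusted p = 0.059) among them. Of the 107 genes at 0 in Col-0, 58 were at 0.5 FPKM or more and 47 at 1 FPKM or more in met1-7, and of the reverse 48, 10 and 2. Pseudocounts of 0.1 and 1 FPKM gave 248 higher and 245 lower genes, and 182 and 121.

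The replicate numbers did not pair the libraries: same-numbered libraries correlated at -0.03 to 0.03 in their deviations from the group means. With the replicate block 211 genes were higher and 175 lower, and CORI3 alone of the named genes lost its call. Of 81 named genes called, 61 were called under every alternative run and none of 1730 values changed sign against a call. Relative depth overlapped between the groups (0.85 to 1.17), and levels under about 1 FPKM rest on few reads.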
